A study of Homo sapiens with 6 samples.

Results

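The mitochondrial ribosomal protein genes are the protein-coding genes whose symbols start with MRPL or MRPS. They were found by symbol after the gene IDs of the count tables had been matched to GENCODE release 29 on GRCh38. Of 60612 gene IDs in each table, 155 had such a symbol, of which 75 pseudogenes and 2 genes of other biotypes were left out. The remaining 78 members, 49 named MRPL and 29 named MRPS, are described here. Of these, 77 were among the 15395 genes that passed the filter on low counts, and MRPL53 was not.

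RNA was sequenced from KO52 cells, a human line of acute myeloid leukemia in which both CEBPA alleles are mutated. All cells were transduced with a doxycycline-inducible pCW57.1 lentiviral vector. According to the paper, the transduced cells were treated with doxycycline before sorting and sequencing, so EV cells were not untreated cells. The insert was dnCEBP, a peptide that pairs with C/EBP factors and keeps them off DNA, dnFOS, which does so to partners of FOS, or GFP alone (empty vector, EV), and transduced cells were sorted by GFP. There were 2 libraries in each of the 3 groups, and the comparisons with EV ask what changes when DNA binding by C/EBP or AP-1 dimers is blocked. KO52 is a single line, so the CEBPA mutations, the vector and the doxycycline treatment were common to every library. The labels used here give no induction time. Nothing in them says that replicates were separate cultures, so the p-values measure the spread between these libraries, which may be technical.

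Mitochondria hold their own ribosome, built from RNAs of the mitochondrial genome and from proteins that are encoded in the nucleus, made in the cytosol and imported. Its large subunit joins amino acids and carries the exit tunnel, and its small subunit holds the messenger RNA and reads codons. It makes a few core proteins of the respiratory chain, and acute myeloid leukemia cells are known to depend on this synthesis. Some members descend from bacterial ribosomal proteins, and others exist in mitochondria only.

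Library depth went with group, at 9862994 and 14583615 counts in dnFOS and between 21681121 and 27663179 in the other libraries, so depth and the dnFOS peptide cannot be told apart. Members held between 26775 and 74693 counts of a library. RN7SL1, the RNA of the signal recognition particle, took 6.12% and 4.31% of counts in dnFOS and 7.75% to 7.94% elsewhere. All 7 myeloid markers (PTPRC, CD33, CD34, KIT, MPO, SPI1 and ANPEP) passed the filter, and they summed to 776 to 809 CPM in dnFOS, 923 to 928 in dnCEBP and 999.7 to 1067 in EV. Among 9 markers of other cell types, CD3D, CD79A, HBB, EPCAM, KRT8 and KRT18 also passed, while CD3E, MS4A1 and COL1A1 held at most 5 counts in any library. These 9 markers summed to 164 to 174 CPM in dnFOS, 191 to 213 in EV and 226 to 230 in dnCEBP, and the part of both marker lists in the results was not tested. CPM are a gene's counts scaled to one common library size. FOS itself differed by 0.16 on the log2 scale between dnFOS and EV (adjusted p = 0.488), so its count does not check the label.

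The promoters of the members carried letters of some regulators far more often than those of others. A window of 300 bases, from 250 before the RefSeq start to 50 after it on GRCh38.p14, was at hand for 70 of the 78 members, and the upstream-most start was used where a gene had several. The letters CCGGAAG, read by ETS factors such as GABPA, stood on either strand in 29 of 70 member windows (41.4%) and in 14.2% of the 15843 windows of protein-coding genes. For the YY1 letters AAGATGGCG the shares were 13 of 70 (18.6%) and 2.69%, although in only 3 of the 13 did a match lie wholly before the start. The NRF1 letters GCATGCGC were found in 6 member windows (8.57%, against 4.28% of all windows). The E-box CACGTG was found in 8 (11.4%, against 8.82%). At least 1 of the ETS, YY1 and NRF1 letters stood in 55.7% of member windows and in 19.4% of all windows. The median GC content was 60.3% in member windows and 62.7% in all windows. Motifs were matched by exact letters and may overlap, and a match is not evidence of binding.

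The letters of the factors blocked in this study were rare. The AP-1 letters TGANTCA stood in 1 member window (1.43%, against 5.7% of all windows), that of MRPS35, and the C/EBP letters TTGCNNCAA in none of 70 (1.67% of all windows). Only the 300 bases next to the start were read. Of the 8 members called in dnFOS against EV that had a window, 3 held the ETS letters and 1 the NRF1 letters. Over all 70 member windows the shares were 41.4% and 8.57%. The stretches below show the ETS letters in these 3 members, which were lower in dnFOS. They also show the NRF1 letters in MRPL22, which was lower too, and the AP-1 letters of MRPS35, with each match in capitals. A link between letters and fold changes was not tested. Each stretch is 110 bases long, 5′ to 3′ on the plus strand, on which all 5 genes lie. MRPL54 is shown from chr19:3762558-3762667, MRPL58 from chr17:75012560-75012669, MRPS22 from chr3:139343844-139343953, MRPL22 from chr5:154940960-154941069 and MRPS35 from chr12:27710602-27710711.
MRPL54: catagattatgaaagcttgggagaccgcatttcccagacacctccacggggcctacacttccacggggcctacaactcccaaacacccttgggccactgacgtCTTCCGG
MRPL58: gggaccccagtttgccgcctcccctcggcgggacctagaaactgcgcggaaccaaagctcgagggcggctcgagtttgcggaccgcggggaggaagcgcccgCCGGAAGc
MRPS22: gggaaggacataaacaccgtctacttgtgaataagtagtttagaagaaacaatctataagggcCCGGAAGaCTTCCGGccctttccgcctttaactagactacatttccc
MRPL22: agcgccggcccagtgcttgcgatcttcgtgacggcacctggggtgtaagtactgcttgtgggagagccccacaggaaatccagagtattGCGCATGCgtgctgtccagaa
MRPS35: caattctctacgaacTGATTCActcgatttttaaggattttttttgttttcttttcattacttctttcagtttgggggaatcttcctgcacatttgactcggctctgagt

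In EV, the members spanned a wide range of levels, which are compared between genes per kilobase of merged exon. Their median was 13 CPM per kilobase, and 43 of the 77 tested members were above 10. MRPL51, a large subunit protein with no bacterial counterpart, was highest at 50.1 ± 0.881 CPM per kilobase (SD, n = 2). MRPL3, which reaches toward the peptidyl transferase center, followed at 47.8 ± 3.01, so its own spread reached the level of MRPL51. MRPS18B stood at 41.4 ± 1.29 and MRPL54 at 40.9 ± 0.332, and these neighbors did not differ beyond their spread either.

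At the low end were MRPL12 at 1.27 ± 0.162 CPM per kilobase, MRPL38 at 1.22 ± 0.0513, MRPL46 at 0.62 ± 0.139 and MRPS24 at 0.283 ± 0.0774 (SD, n = 2). MRPL12 encodes the stalk protein that draws translation factors to the ribosome, and MRPS24 the counterpart of bacterial S3 at the messenger RNA entry. Below all of them was MRPL53, for which the EV libraries held 2 and 9 counts, the dnCEBP libraries 1 and 0, and both dnFOS libraries 0. Counts of 0 to 3 cannot be told from the floor of 3 counts, worth 0.108 to 0.304 CPM, and such floors cover counting error only.

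The lowest members were also those that share exons with another gene model. On the same strand, another gene covered 68.2% of the exon bases of MRPL12, 45.2% of MRPL53, 37.5% of MRPL38 and 23.2% of MRPS24. Only 7 of 78 members passed 20% overlap of this kind, and 4 of the 5 lowest members were among them. The partner of MRPS24, the readthrough gene URGCP-MRPS24, had at most 1 count, that of MRPL12 had 0 counts in all 6 libraries, and CCDC142, which overlaps MRPL53, had 35 to 112. How reads in shared exons and the strand were handled is not given in the sources used here, so the levels of these members are uncertain. On either strand, 14 members passed 20% overlap, MRPL51, MRPL9, MRPS18A and MRPS18C included. Reads that also match one of the 75 pseudogenes could likewise have been split.

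**Figure D1:**
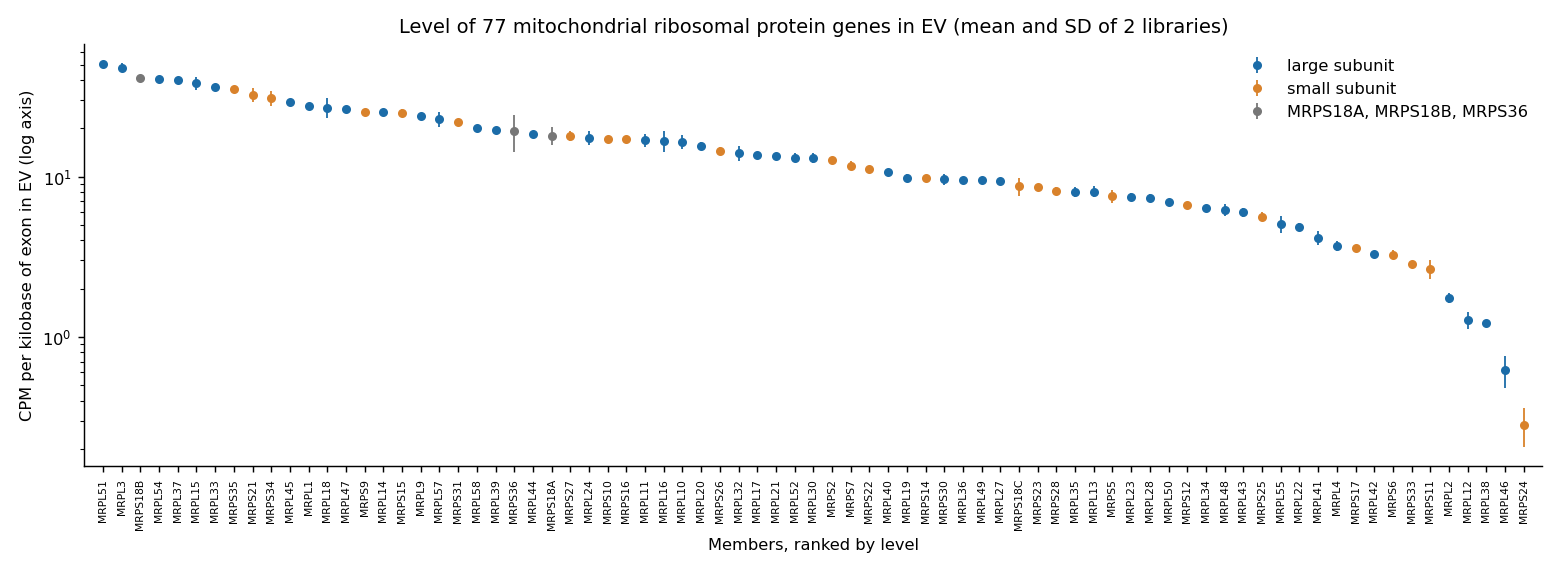
Level of each tested member in EV in CPM per kilobase of merged exon on a log axis, ranked from highest to lowest. Points are means and bars the SD of 2 libraries, blue for the large and orange for the small subunit, gray for MRPS18A, MRPS18B and MRPS36; MRPL51 leads at 50.1 and MRPS24 is last at 0.283.

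In dnCEBP, members stayed close to EV. No member of 77 passed the edgeR test at an adjusted p under 0.05, where 1.07% of all genes tested did. A single member, MRPL4, had an unadjusted p under 0.05, and DESeq2 and limma-voom also called 0. The median log2 fold change was -0.01 (all genes, -0.0022), with 37 members above 0 and 40 below. Both dnCEBP libraries were above both EV libraries for 9 members (21.9% of all genes tested) and below both for 15 (20.9% of all genes). The 15 lower members are close to the background share. The members together made 2764 and 2903 CPM in dnCEBP and 2896 and 2747 CPM in EV, which overlap.

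The largest differences in dnCEBP did not pass the test. MRPL4, the counterpart of L4 at the exit tunnel, was at 15.8 and 14.3 CPM in EV and 11.5 and 9.80 CPM in dnCEBP, and so lower in both libraries. Its log2 fold change was -0.50 ± 0.155 (SE, adjusted p = 0.136). MRPL46 was at 3.36 and 4.62 CPM in EV and 5.00 and 5.26 CPM in dnCEBP, a log2 fold change of 0.36 ± 0.234 (adjusted p = 0.58), with groups that did not overlap. For MRPL13, a large subunit protein, the difference was 0.21 ± 0.121 (adjusted p = 0.532), with EV at 35.8 and 32.0 CPM and dnCEBP at 34.0 and 44.5 CPM. MRPL12 summed to 36 counts in dnCEBP and 60 in EV, a ratio of 0.574 with a 95% exact counting interval of 0.369 to 0.882 that leaves out the spread between libraries (adjusted p = 0.561).

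In dnFOS, the members were lower as a group by a small amount. The edgeR test called 9 of 77 (11.7%), below the 15% of all genes tested. Of these, 8 were lower, or 10.4% of members against 7.76% of all genes, and MRPL50 alone was higher, or 1.3% against 7.24%. The median log2 fold change was -0.13 (all genes, 0.004), with 58 members below 0 and 19 above. Both dnFOS libraries were below both EV libraries for 46 members, where 28.4% of all genes were, and above both for 12, where 28.3% were. This comparison shares its EV libraries with that of dnCEBP. In bulk RNA, fewer cells of a type and less RNA per cell cannot be told apart.

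The fall was seen in both dnFOS libraries. The median member deviated from the EV mean by -0.13 and -0.14 on the log2 scale in the dnFOS libraries, by 0.03 and -0.03 in EV, and by -0.01 and 0.01 in dnCEBP. All members together made 2632 and 2589 CPM in dnFOS (mean 2610 ± 30.4, SD, n = 2), below both EV libraries (mean 2822 ± 105). With library totals alone in place of scaling factors, the means were 2746 CPM in dnFOS and 2773 in EV. That scaling moved the median of all genes to 0.10 and of the members to -0.03, and the member calls split into 3 higher and 3 lower. Of all 15395 genes tested, 1905 were called higher and 676 lower in that fit. Such scaling rescales all genes of a library alike, so it cannot change where the members stand relative to all genes.

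**Figure D2:**
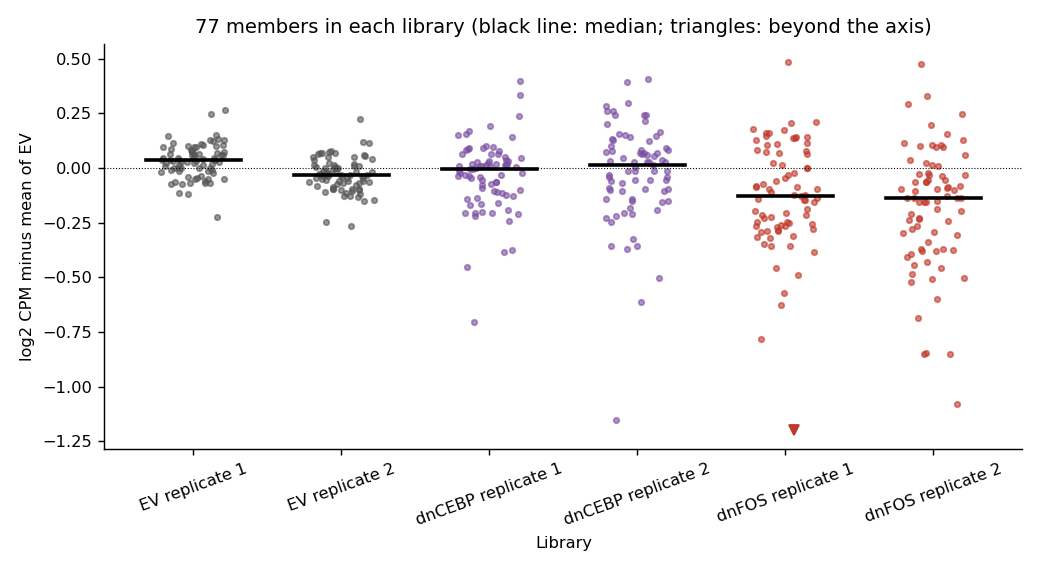
Deviation of the 77 tested members from their EV mean, in log2 CPM with a prior count of 2, in each of the 6 libraries; points are members, black lines medians, and the triangle is MRPS24 in dnFOS replicate 1, placed at the lower edge. The 2 dnFOS medians lie at -0.13 and -0.14, below those of the other 4 libraries.

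Most of the calls were in the large subunit, which also held 50 of the 77 tested members. Of these 50, 7 were lower and 1 higher in dnFOS (16%, against 15% of all genes tested), with a median of -0.16. Among 26 small subunit members only MRPS22 was called (3.85%), with a median of -0.13. With a trend on GC content and exon length removed, 10 of 50 and 3 of 26 were called, against 13% of all genes. Both subunit totals include a relative of bacterial S18, MRPS18A in the large and MRPS18B in the small subunit, which were set apart in the split by descent and had a median of -0.21 with 0 calls. Of the rest, 4 of 29 large subunit members with a bacterial counterpart were called lower (median -0.12), and 3 of 20 without one (median -0.20). MRPL55 was counted among those without one, a placement that is uncertain. None of 16 small subunit members with a counterpart was called (median -0.13), and 1 of 9 without (median -0.03). The difference between classes was not tested. Large subunit CPM exceeded small subunit CPM by a ratio of 1.7 ± 0.0099 (SD, n = 2) in EV. The ratio was 1.74 ± 0.0332 with dnCEBP and 1.68 ± 0.00354 with dnFOS.

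MRPL54 (ENSG00000183617, chr19:3762664-3768575), a large subunit protein without a bacterial counterpart and among the 4 highest members, had the largest fall of those called. It was at 40.8 and 41.2 CPM in EV, 45.7 and 43.4 CPM in dnCEBP, and 29.2 and 22.7 CPM in dnFOS. Both dnFOS libraries were well below the other 4, which lay close together. Its log2 fold change in dnFOS against EV was -0.65 ± 0.121 (SE, adjusted p = 0.000457). MRPL21 (ENSG00000197345, chr11:68891276-68903835), the counterpart of bacterial L21, was at 37.9 and 38.0 CPM in EV, 36.0 and 40.0 CPM in dnCEBP, and 25.5 and 26.7 CPM in dnFOS. Again only the dnFOS libraries were low, by -0.54 ± 0.117 (adjusted p = 0.00195). The calls of both genes held in all 11 alternative settings and with each library left out, although with a trend on GC content and exon length removed the difference of MRPL54 was smaller, at -0.36 (adjusted p = 0.0206).

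MRPL58 (ENSG00000167862, chr17:75012670-75021261) is a peptidyl-tRNA hydrolase that frees stalled ribosomes and is also built into the large subunit. It was at 22.6 and 22.2 CPM in EV, 20.8 and 22.1 CPM in dnCEBP, and 16.3 and 15.9 CPM in dnFOS, with no overlap between dnFOS and the rest. The difference from EV was -0.47 ± 0.137 (adjusted p = 0.0182). MRPL37 (ENSG00000116221, chr1:54184041-54225464), a large subunit protein found in mitochondria only, was at 105 and 99.8 CPM in EV, 99.7 and 99.3 CPM in dnCEBP, and 83.7 and 74.5 CPM in dnFOS. It fell by 0.37 on the log2 scale (SE 0.0879, adjusted p = 0.00437).

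MRPS22 (ENSG00000175110, chr3:139005806-139357223), a small subunit protein mutated in an inherited mitochondrial disease, was at 60.8 and 58.7 CPM in EV and 58.0 and 60.3 CPM in dnCEBP. In dnFOS it was at 47.9 and 46.1 CPM, below all other libraries, a difference from EV of -0.34 ± 0.0974 (adjusted p = 0.0154). MRPL22 (ENSG00000082515, chr5:154941070-154969411), which lines the exit tunnel, was at 24.6 and 26.5 CPM in EV, 22.1 and 23.1 CPM in dnCEBP, and 20.4 and 17.98 CPM in dnFOS. Its groups were ordered without overlap, with dnCEBP in the middle, and the dnFOS difference was -0.41 ± 0.133 (adjusted p = 0.037).

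MRPL9 (ENSG00000143436, chr1:151759643-151763564) and MRPL11 (ENSG00000174547, chr11:66435075-66466738) are counterparts of the bacterial proteins L9 and L11, the latter next to the site where translation factors act. MRPL9 was at 43.1 CPM in both EV libraries, 43.6 and 45.3 CPM in dnCEBP, and 34.8 and 32.5 CPM in dnFOS, a difference from EV of -0.36 ± 0.109 (adjusted p = 0.0257). MRPL11 was at 45.6 and 40.0 CPM in EV, 45.5 and 40.0 CPM in dnCEBP, and 33.5 and 33.7 CPM in dnFOS, a difference of -0.35 ± 0.115 (adjusted p = 0.0383). In both genes the dnFOS libraries stood apart from the other 4.

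MRPL50 (ENSG00000136897, chr9:101387633-101398614), a large subunit protein with no bacterial counterpart, was the only member called higher. It was at 23.2 and 23.0 CPM in EV, 23.4 and 27.7 CPM in dnCEBP, and 32.4 and 32.2 CPM in dnFOS, so that dnFOS lay above every other library. The log2 fold change was 0.48 ± 0.126 (adjusted p = 0.00889). Its transcripts had the lowest GC content of the 77 members, 35.0%. Once a trend on GC content and exon length was removed from each library, the difference was 0.06 (adjusted p = 0.793).

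**Figure D3:**
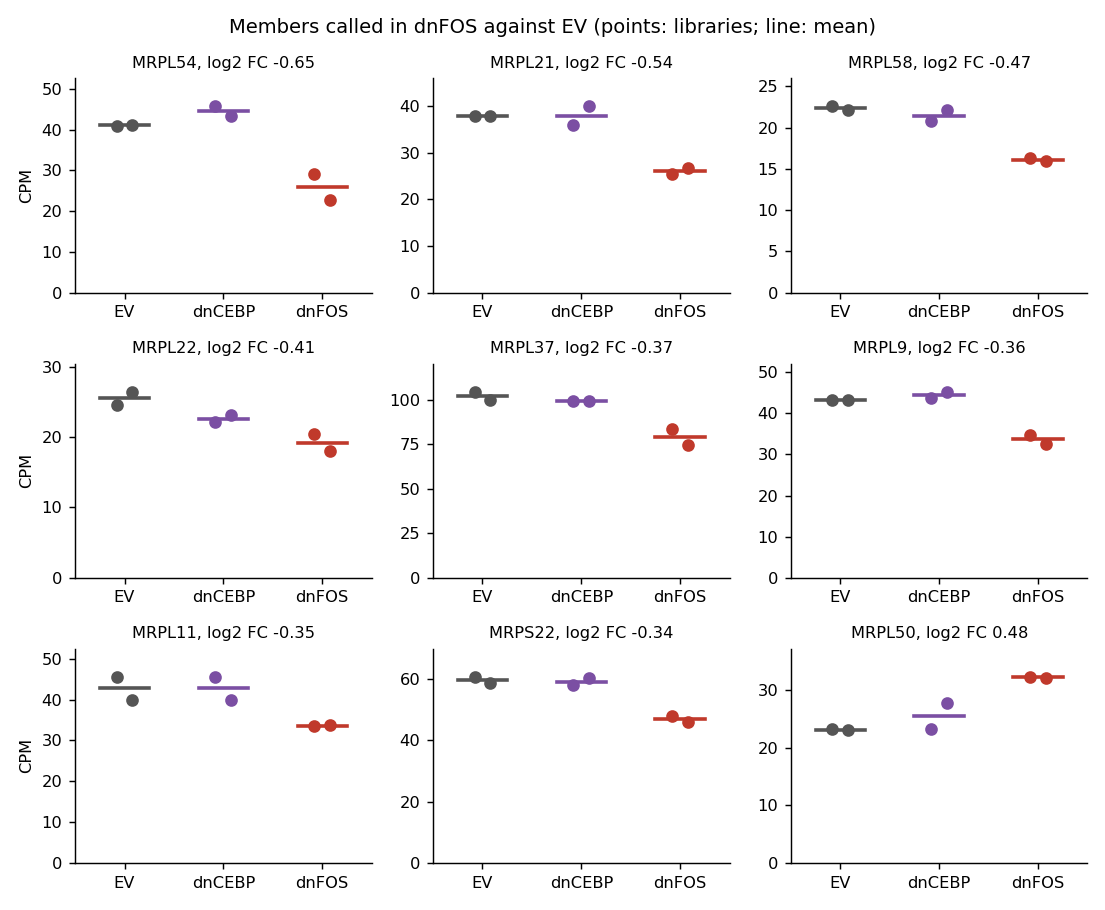
CPM of the 9 members called in dnFOS against EV, one panel per gene, with a CPM axis from 0. Points are libraries and lines the mean of 2; dnFOS lies below both other groups in 8 panels and above them in that of MRPL50.

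The calls depended on single libraries, as they did over all genes. Without EV replicate 1 only 2 members were called in dnFOS against EV, and without dnFOS replicate 2, the shallowest library, 3 were. Over all genes tested, the 2309 calls fell to 1059 and 972 in these fits. Leaving out any other library gave 7 to 11 members. Beside MRPL54 and MRPL21, calls held in 4 of the 6 fits without 1 library for MRPL37, MRPS22 and MRPL50. They held in 3 for MRPL22, MRPL9 and MRPL11, and in 2 for MRPL58.

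Fold changes in dnFOS also followed base composition. GC content was taken over all annotated transcripts of a gene together. Across the 77 members the log2 fold change of dnFOS against EV had a Spearman correlation of -0.491 with GC content (Pearson -0.443). Over all genes with a known GC content it was -0.392. These are correlations across genes that share the same 6 libraries, and genes are not independent replicates. The 26 members of lowest GC content (34.96% to 44.6%) had a median of 0.04, the 25 in the middle -0.14, and the 26 of highest GC content (53.45% to 71.95%) -0.23. With the trend on GC content and length removed, 14 members were called lower and 0 higher, against 7.98% of all genes called lower in that fit. Of these 14, 6 were called in both fits, namely MRPL54, MRPL21, MRPL58, MRPL37, MRPL22 and MRPS22. MRPL9, at -0.27 (adjusted p = 0.0601), and MRPL11, at -0.29 (adjusted p = 0.0599), kept most of their difference but did not pass, and that of MRPL50 was near 0 as given above. The other 8 were MRPL1, MRPL16, MRPL32, MRPL48, MRPS18C, MRPS30, MRPS35 and MRPS36. Of these, MRPL1, MRPL32, MRPS18C, MRPS30, MRPS35 and MRPS36 were in the group of lowest GC content. In that fit the members' fold changes had a Spearman correlation of 0.168 with GC content, so the sign had turned. Whether the removal overcorrects members of low GC content was not tested. The median of the members moved from -0.13 to -0.09.

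**Figure D4:**
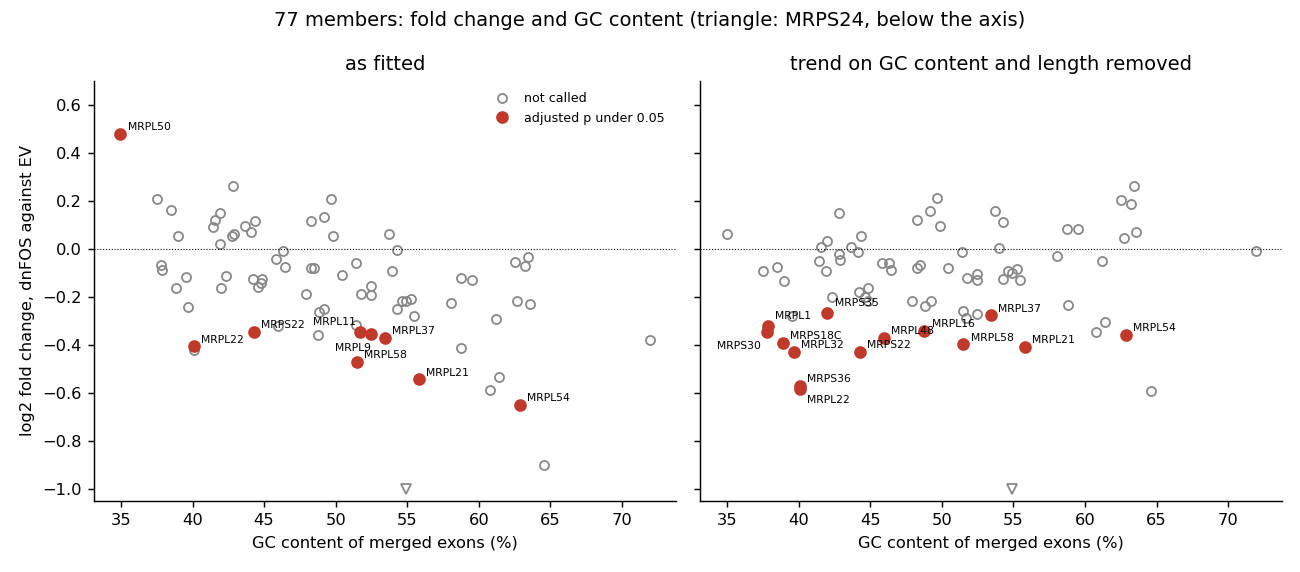
Log2 fold change of the 77 members in dnFOS against EV over their GC content in percent. Values are as fitted on the left and with the trend on GC content and length removed on the right. GC content was taken over all annotated transcripts of a gene together, although the axis names merged exons. Filled red points passed an adjusted p under 0.05 and open points did not; 9 members are called on the left and 14 on the right, all below 0 there, and the triangle stands for MRPS24, below the axis.

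Among members that did not pass the test in dnFOS, MRPS24 had the largest fitted difference. Its counts were 21 and 13 (EV), 11 and 10 (dnCEBP) and 2 and 3 (dnFOS), the last at or under the floor. The ratio of dnFOS to EV was 0.262, with a 95% exact counting interval of 0.08 to 0.673 (adjusted p = 0.139). MRPL12 summed to 18 counts in dnFOS and 60 in EV, a ratio of 0.534 with an interval of 0.297 to 0.918 (adjusted p = 0.307). The next rises after MRPL50 were MRPL19 at 0.26 ± 0.108 (adjusted p = 0.0981) and MRPS25 at 0.21 ± 0.122 (adjusted p = 0.268). MRPL19, the counterpart of L19, was at 46.8 and 43.9 CPM in EV and 52.2 and 56.9 CPM in dnFOS, without overlap, and passed the test with library totals alone (adjusted p = 0.0199).

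Members with distinct roles did not pass the test in dnFOS against EV, MRPL58 apart. In dnFOS, both libraries were below both EV libraries for MRPL45, MRPS12, MRPS18A, MRPS18B, MRPS36 and MRPL12, and overlapped EV for MRPS30 and MRPS18C. MRPL45, which anchors the ribosome to the inner membrane, differed from EV by -0.08 in dnCEBP (adjusted p = 0.831) and by -0.08 in dnFOS (adjusted p = 0.681). MRPS12, the counterpart of S12 at the decoding center, differed by -0.13 in dnFOS (adjusted p = 0.647). MRPS30, a large subunit protein despite its name, differed by -0.07 (adjusted p = 0.74). It was one of the genes that passed only after the GC trend was removed, at -0.35 ± 0.0881 (adjusted p = 0.00668).

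The 3 relatives of bacterial S18 sit at different places of the ribosome and all had negative differences in dnFOS. MRPS18A differed by -0.23 (adjusted p = 0.296), MRPS18B by -0.19 (adjusted p = 0.172) and MRPS18C by -0.16 (adjusted p = 0.418). MRPS36 (ENSG00000134056, chr5:69217760-69230129), now known as a subunit of the 2-oxoglutarate dehydrogenase complex and not of the ribosome, was at 34.8 and 24.1 CPM in EV, 29.6 and 34.3 CPM in dnCEBP, and 22.6 and 21.5 CPM in dnFOS. The EV libraries were far apart, and the difference between dnFOS and EV was -0.42 ± 0.146 (adjusted p = 0.0508).

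The direct comparison of dnFOS with dnCEBP called 11 of 77 members, all lower in dnFOS. The share called was 14.7% over all genes tested, of which 7.84% were lower and 6.83% higher. The median difference of the members was -0.11 (all genes, 0.0242). MRPL54, MRPL21, MRPL58, MRPL37, MRPL9, MRPL11 and MRPS22 were called here as they were against EV, and the comparisons share the dnFOS libraries. Their differences ran from -0.77 in MRPL54 (adjusted p = 3.86e-05) to -0.33 in MRPL37 (adjusted p = 0.0103). Without dnFOS replicate 2 only 2 members were called, and without either dnCEBP replicate 6. Calls over all genes fell from 2259 to 1182 without dnFOS replicate 2, and to 1349 and 1531 without dnCEBP replicates 1 and 2.

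The other 4 members called in this comparison were MRPL55, MRPS36, MRPL48 and MRPL51. MRPL55, a large subunit protein, was at 12.5 and 9.12 CPM in dnCEBP and 7.23 and 5.22 CPM in dnFOS, with EV at 8.73 and 10.3 CPM. The dnFOS libraries were below the other 4, and EV overlapped dnCEBP. The difference between dnFOS and dnCEBP was -0.78 ± 0.208 (adjusted p = 0.0101). MRPS36 differed by -0.53 ± 0.145 (adjusted p = 0.0127), with no overlap between the dnFOS and dnCEBP values given above. MRPL48 was at 27.8 and 29.8 CPM in dnCEBP and 22.6 and 21.0 CPM in dnFOS, a difference of -0.40 ± 0.128 (adjusted p = 0.0322). MRPL51 was at 78.4 and 91.8 CPM in dnCEBP and 67.7 and 62.8 CPM in dnFOS, a difference of -0.38 ± 0.0943 (adjusted p = 0.00598).

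Mitoribosomal proteins that carry other names moved partly as the members did. Of 5 tested, GADD45GIP1 fell by 0.51 on the log2 scale in dnFOS against EV (adjusted p = 0.00993) and AURKAIP1 by 0.41 (adjusted p = 0.0319), while DAP3, PTCD3 and CHCHD1 did not pass. Of 25 assembly factors, METTL17, which acts on the small subunit, was lower, at -0.45 (adjusted p = 0.0081). GTPBP10, a GTPase of large subunit assembly, was higher by 0.43 (adjusted p = 0.0404), and FASTKD2, which binds mitochondrial RNA, by 0.33 (adjusted p = 0.0383). With the GC trend removed, GADD45GIP1 (adjusted p = 0.138), AURKAIP1 (adjusted p = 0.749), GTPBP10 (adjusted p = 0.602) and FASTKD2 (adjusted p = 0.579) did not pass.

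Among 15 translation factors, MTFMT, which formylates the initiator tRNA, was higher in dnFOS by 0.54 (adjusted p = 0.0447) and the GTPase GUF1 by 0.46 (adjusted p = 0.00626). GUF1 did not pass with the GC trend removed (adjusted p = 0.0767). MRRF, the ribosome recycling factor, was lower in dnFOS than in dnCEBP, at -0.42 (adjusted p = 0.0253). Of 20 genes that charge mitochondrial tRNAs, HARS2, the histidine enzyme, was lower in dnFOS than in EV, at -0.50 (adjusted p = 0.00732). None of these lists had a member called in dnCEBP against EV.

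Genes that transcribe the mitochondrial genome or regulate its nuclear partners gave 1 call each in dnFOS. Of 5 transcription genes, TFAM, which packages and transcribes mitochondrial DNA, was at 76.8 and 67.7 CPM in EV and 102 and 104 CPM in dnFOS, a rise of 0.51 ± 0.0902 (adjusted p = 0.000246). With the GC trend removed its rise was 0.30 (adjusted p = 0.00922). Of 8 tested regulators, GABPA, the ETS factor named above, rose by 0.46 ± 0.131 in dnFOS (adjusted p = 0.0157). It did not pass with the GC trend removed (adjusted p = 0.537). MYC, a driver of ribosome genes, was at 233 and 215 CPM in EV and 149 and 130 CPM in dnCEBP, a difference of -0.68 ± 0.088 (adjusted p = 4.76e-05). No member was called in that comparison.

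Transcripts of the mitochondrial genome went the other way in dnFOS. Of its 13 mRNAs, 11 were higher than in EV and none lower, with a median of 0.54. Without dnFOS replicate 2 or without EV replicate 1, 7 were called. MT-ND5, a subunit of complex I, was at 42.9 and 53.5 CPM in EV and 76.7 and 106 CPM in dnFOS, a difference of 0.92 ± 0.13 (adjusted p = 0.000101). In dnCEBP, MT-ND1 was lower, at -0.53 (adjusted p = 0.00308), and MT-CYB at -0.42 (adjusted p = 0.0216), and the median was -0.40. Neither mitochondrial ribosomal RNA was called, and MT-RNR2 differed by -0.10 in dnFOS (adjusted p = 0.291). MT-RNR2 took 21.7% to 22.3% of the counts of each library. Ribosomal RNA had been depleted before sequencing, so what remained need not measure the level of these RNAs in the cells. In all, 3 of 93 tested genes of these other lists were called in dnCEBP against EV (3.23%, against 1.07% of all genes). The count was 22 in dnFOS against EV (23.7%, against 15%) and 21 in dnFOS against dnCEBP (22.6%, against 14.7%). The mRNAs of the mitochondrial genome made up 2, 11 and 13 of these calls.

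Beside the 8 of 77 members called lower in dnFOS against EV, 27 of 78 cytosolic ribosomal protein genes were called lower, none higher, with a median of -0.22. Among 81 nuclear genes of respiratory chain subunits, 22 were lower and 3 higher, with a median of -0.17. None of either group was called in dnCEBP. These counts rested on single libraries too. Without dnFOS replicate 2 the cytosolic genes called were 2 and the respiratory chain genes 8, and without EV replicate 1 they were 5 and 7. With library totals alone, 10 cytosolic and 11 respiratory chain genes were called lower, beside 3 members and 676 of all 15395 genes tested. Cytosolic ribosomal protein genes together made 111400 ± 2460 CPM in EV and 96650 ± 4290 in dnFOS (SD, n = 2). The difference between these groups and the members was not tested.

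**Figure D5:**
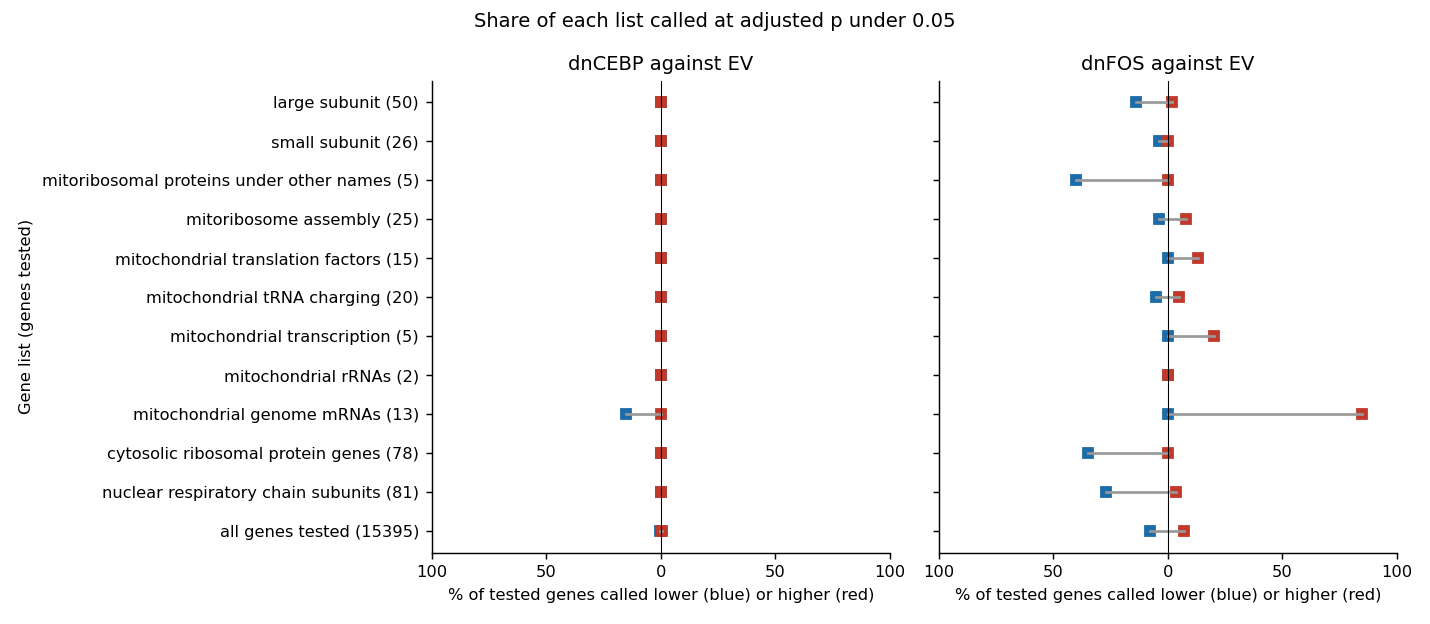
Percent of each list's tested genes called lower (blue, to the left) or higher (red, to the right) at an adjusted p under 0.05, in dnCEBP against EV and in dnFOS against EV; squares at 0 cover each other. In dnFOS, 7 of 50 large subunit genes and 27 of 78 cytosolic ribosomal protein genes were lower, and 11 of 13 mitochondrial mRNAs were higher. Of all genes tested, 7.76% were lower and 7.24% higher.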

How the data were processed

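Total RNA was depleted of ribosomal RNA before library preparation by the authors. The submitters' processing notes name Trimmomatic, HISAT2, featureCounts, Subread and hg38. Versions, annotation, strand setting and treatment of shared reads are not given in the sources used here. The authors deposited a table for each library with the count of reads on each gene, not normalized.

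Counts were fitted with edgeR 4.0.16 in R 4.3.3: filterByExpr (minimum count 10, leaving 15395 of 27870 genes with at least 1 count), TMM factors (0.956 to 1.05), a robust quasi-likelihood model with a mean per group over all 6 libraries, leaving 3 residual degrees of freedom (common dispersion as biological coefficient of variation, 0.0961). Tests were two-sided, with Benjamini-Hochberg adjustment over all genes tested and calls at an adjusted p under 0.05. CPM use scaled library sizes. Standard errors come from the fold change and its F statistic. Scripts were tested on simulated data. Some genes of the comparison lists are not reported here by name.

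The members, lists and tests were chosen with earlier results of these data known. Named members were those called in any comparison, the 4 highest and 4 lowest per kilobase in EV, 9 with particular roles, the 3 largest rises and falls against EV, and any that failed the filter, with called genes of the other lists, at most 5 a list. Genes called only after the GC trend was removed, and MRPS35 for its AP-1 letters, were named after their values were seen. Alternatives were the filter, normalization, test (DESeq2 1.42.0, limma-voom 3.58.1), libraries, replicate block, and a GC content and length trend (mgcv 1.9.3).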

Additional observations from a re-analysis of the deposited data

How the results depend on the processing

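Over all genes tested, calls in dnFOS against EV numbered 2309 in the fit reported above. They were 2008 with the trend on GC content and length removed, 1822 with DESeq2 and 1907 with limma-voom. Members called in dnFOS against EV numbered 9 in the fit reported above. They were 14 once the trend on GC content and length was removed, 7 with DESeq2 or limma-voom, and 2 to 11 with each library left out. In dnFOS against dnCEBP the 11 became 7 with library totals alone and 2 to 10 with a library left out. In dnCEBP against EV, 165 of all genes tested were called. These became 255 without the filter, 297 with only the 4 libraries compared and 250 with the GC trend removed. Of other genes of mitochondrial translation, 3 were called in dnCEBP against EV. There were 8 without the filter, 9 with only the 4 libraries compared, 8 with the GC trend removed, and 1 to 9 with a library left out. In dnFOS against EV the 22 became 9 to 26 with a library left out, 9 without dnFOS replicate 2 and 10 without EV replicate 1.

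The labels do not say whether same-numbered libraries were prepared together. Differences between the 2 replicates had correlations across genes of 0.088 (dnCEBP and dnFOS), 0.017 (dnCEBP and EV) and 0.028 (dnFOS and EV). Over the members these were 0.3, -0.114 and -0.276. Such correlations cannot decide whether the libraries were paired. With the replicate block, calls over all genes tested rose from 165 to 488 in dnCEBP against EV. In dnFOS against EV they rose from 2309 to 3172. Of the members, 1 (MRPL4) was called in dnCEBP against EV, 17 in dnFOS against EV and 15 in dnFOS against dnCEBP. With the block and the GC trend removed the last 2 counts were 16 and 18. The other genes called in dnCEBP were 10 in either blocked fit.

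The median of the members in dnFOS against EV was -0.0327 with library totals alone, -0.093 with the GC trend removed, -0.0926 with the block added to that, and -0.16 to -0.11 with a library left out. In dnFOS against dnCEBP it was 0.015 with library totals alone. In dnCEBP it ran from -0.0469 to 0.0432 with a library left out. The summed level in dnFOS was 2746 CPM with library totals alone. MRPL55 in dnCEBP against EV turned to -0.0589 without dnCEBP replicate 1 and ranged up to 0.396 without dnCEBP replicate 2. Where no cause is given above, the cause was not tested. With 2 libraries a group and shallower dnFOS libraries, members with few counts, such as MRPS24 and MRPL12, could not be resolved.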

Other observations

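The members also differed between replicates of a group. In EV, 51 members were higher in replicate 1 and 25 lower, with a median difference, replicate 1 minus replicate 2, of 0.07 on the log2 scale. This median was -0.07 in dnCEBP and 0.04 in dnFOS.

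In dnCEBP, where no member was called, the log2 fold change of the 77 members against EV had a Spearman correlation of -0.425 with GC content (Pearson -0.421), and that of all genes with a known GC content -0.315. The correlation of the members with exon length was 0.04 in dnCEBP and 0.301 in dnFOS. These correlations run across genes of the same libraries, and both comparisons share the EV libraries. Members had a median exon length of 2539 bases and a median GC content of 49.16%, against 4424 bases and 48.4% over all genes tested.

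Promoter letters and fold changes stood side by side as follows. The 28 tested members with the ETS letters had a median of -0.15 in dnFOS against EV, and the 41 without them -0.13. The 13 with the YY1 letters had a median of -0.19 and the 56 without -0.12. Over all tested genes with a promoter window, the medians were -0.02 with and -0.0007 without the ETS letters, and -0.07 with and -0.0025 without the YY1 letters. MRPS35, whose window held the AP-1 letters, differed by -0.16 ± 0.098 (edgeR, adjusted p = 0.289).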
